A study of Sus scrofa with 12 samples.

Results

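The relaxin family comprises small hormones built like insulin and the receptors that bind them. Its rows in the gene table were found by symbol, and 9 of the 11 symbols searched were listed among 29884 genes. These were 5 ligands, INSL3, INSL5, INSL6, RLN2 and RLN3, and 4 receptors, RXFP1, RXFP2, RXFP3 and RXFP4. RLN and RLN1 were not listed, and RefSeq gives RLN as another name of RLN2. Of the 9 genes, 8 were above 0 FPKM in at least 1 ovary and 2, INSL3 and RLN2, passed the filter for testing, which required at least 1 FPKM in at least 3 libraries. FPKM is the number of reads on a gene scaled to the length of its transcript and to the reads of the library.

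RNA was taken from the left ovaries of commercial sows that were slaughtered 4 days after their 4th delivery. Ovaries ZD2, ZD3 and ZD12 came from 3 sows with small litters (SLS), and ovaries ZD5, ZD7 and ZD8 from 3 sows with large litters (LLS). Each ovary gave 1 library of total RNA, whole tissue was used, and the labels describe no treatment. The follicles and corpora lutea held by each ovary are not described in the sources used here.

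INSL3 is a hormone of the theca cells, which surround the growing follicle and make androgen, and it signals through RXFP2. Relaxin is made by the corpus luteum of the pig, from which it softens the cervix and the pelvic ligaments before birth, and its receptor is RXFP1. RXFP1 and RXFP2 act mainly through cyclic AMP, whereas RXFP3, the receptor of RLN3 in the brain, and RXFP4, the receptor of INSL5 in the gut, couple to inhibitory G proteins.

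The depth lay between 32272802 reads in ZD8 and 60903268 reads in ZD2. ZD8 stood apart from the other ovaries over the genes tested, with a mean Spearman correlation across genes of 0.765 with the others. Each of the others had a mean of 0.903 to 0.920, which includes its correlation with ZD8. Of 12260 genes tested, 44.6% were higher in ZD8 than in every other ovary and 26.3% were lower than in every other ovary. The group differences of INSL3, RLN2, RXFP2 and RXFP3 are therefore also given without it.

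INSL3 lies on chromosome 2 of Sscrofa11.1 from 59929591 to 59931220 on the plus strand, with 2 exons and a transcript of 755 nt. RLN2 lies on chromosome 1 from 216763546 to 216769802 on the plus strand, also with 2 exons, and its longest transcript has 733 nt. Both are shown by the bases before their starts, because they were the 2 members at a high level and their levels in ZD8 went in opposite directions. The 4 motifs searched on both strands were AGGTCA, the core of the site bound by NR5A1 and other nuclear receptors, AGATAA, a site of GATA factors, TGACGTCA, the full cyclic AMP response element, and TATAAA, the TATA box. Capitals mark the matches, and each sequence is the plus strand of the genome written 5′ to 3′, read from the RefSeq assembly Sscrofa11.1. The first stretch is chr2:59929341-59929590, the 250 bases before INSL3. The second is chr1:216763296-216763445, which ends 101 bases before RLN2, since the annotated start of RLN2 is also its coding start.
INSL3: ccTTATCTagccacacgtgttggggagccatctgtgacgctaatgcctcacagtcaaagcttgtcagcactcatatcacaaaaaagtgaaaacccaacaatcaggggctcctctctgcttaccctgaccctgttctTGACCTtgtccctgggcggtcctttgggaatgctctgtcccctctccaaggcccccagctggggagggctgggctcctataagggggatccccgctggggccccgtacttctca
RLN2: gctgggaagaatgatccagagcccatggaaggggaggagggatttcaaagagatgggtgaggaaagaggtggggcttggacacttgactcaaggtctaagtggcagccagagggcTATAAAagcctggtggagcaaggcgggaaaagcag

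The INSL3 stretch held 1 match to AGGTCA, on the minus strand from 114 to 109 bases before the start, and 1 match to AGATAA, on the minus strand from 248 to 243 bases before it. The 250 bases before RLN2 held 1 match to TATAAA, on the plus strand from 135 to 130 bases before the start, and none of the other 3 motifs. The matches do not overlap. Among the 250 bases before 19528 protein-coding genes, 12.2% held AGGTCA, 8.08% AGATAA, 1.7% TGACGTCA and 9.76% TATAAA. A match is a description of the letters and no evidence of binding.

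INSL3 was far higher in the LLS ovary ZD8 than elsewhere. Its level was 6.0, 4.82 and 45.1 FPKM in ZD2, ZD3 and ZD12 of the SLS group and 11.6, 2.28 and 298 FPKM in ZD5, ZD7 and ZD8 of the LLS group. ZD8 held the highest level, ZD12 the next and ZD7 the lowest, so that LLS ovaries stood at both ends and the groups overlapped. These levels rested on 276, 188 and 1801 reads in the SLS ovaries and on 504, 105 and 7258 reads in the LLS ovaries. The counting intervals of ZD2, 5.32 to 6.75 FPKM, and of ZD3, 4.15 to 5.56 FPKM, overlapped, and no other neighbours in the order of the 6 levels did. These 95% Poisson intervals cover counting error only, and even numbers took 57.5% to 67.9% of the values of 2 to 21 reads, so that mates of a pair may have been counted separately and the intervals may be too narrow.

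ZD8 held 6.61 times the INSL3 level of ZD12 (95% counting interval 6.27 to 6.96). The remaining 5 ovaries still differed among themselves by 19.7-fold. By level INSL3 ranked 127 among all genes in ZD8 and 1423 in ZD12, while in the other 4 ovaries it ranked from 4838 to 10186. Of 351 genes at 100 FPKM or more in ZD8, INSL3 had the largest rise over the highest of the other ovaries, followed by IGFBP5, which binds insulin-like growth factors, with a ratio of 4.55. This set was chosen by the level in ZD8 itself. INSL3, at most 45.1 FPKM elsewhere, entered it only through ZD8, so the rank is a description. Over all genes tested, whatever their level, 16 had a ratio at least as large as that of INSL3, itself included. In bulk tissue, a difference in the number of cells of a type and a difference in the RNA of each cell cannot be told apart.

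RLN2, the pig relaxin gene, was abundant in 5 ovaries and nearly missing from ZD8. Its level was 177, 278 and 258 FPKM in ZD2, ZD3 and ZD12 of the SLS group and 311, 162 and 0.296 FPKM in ZD5, ZD7 and ZD8 of the LLS group. The highest and the 2 lowest levels all belonged to LLS ovaries, and the SLS ovaries lay between them. The read counts were 7908, 10542 and 9992 in the SLS ovaries and 13135, 7244 and 7 in the LLS ovaries. The counting intervals of the 6 levels did not overlap, and the closest pair was ZD2, 173 to 181 FPKM, and ZD7, 159 to 166 FPKM.

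ZD7, the lowest of the other 5 ovaries, held 549 times the RLN2 level of ZD8 (95% counting interval 266 to 1365), and 1504 times after quantile normalization. Those 5 ovaries differed from each other by 1.92-fold. RLN2 ranked between 151 and 311 by level among all genes there and 16928 in ZD8. Of 367 genes at 100 FPKM or more in each of the 5 ovaries, RLN2 had the largest fall in ZD8, and the next in this range of levels was HSD3B1, which makes progesterone, with a ratio of 175. Over all tested genes above 0 in ZD8, whatever their level, the ratio of RLN2 was also the largest, and the next were PAQR9 with 250 and MGAM, an intestinal maltase, with 235. A further 28 tested genes were at 0 in ZD8 and above 0 in every other ovary, so that they have no ratio.

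**Figure D1:**
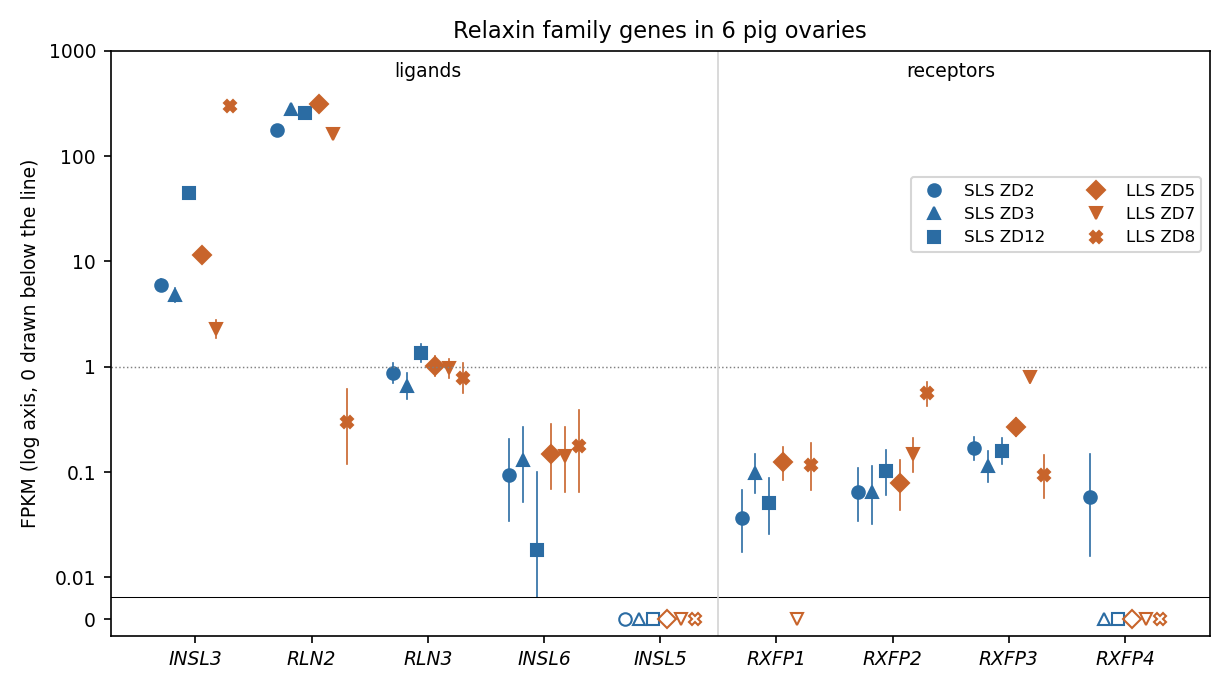
Level of each relaxin family gene in each ovary in FPKM on a log axis, with SLS ovaries in blue, LLS ovaries in orange, 95% counting intervals as vertical lines and values of 0 drawn as open symbols below the horizontal line; the dotted line is 1 FPKM. INSL3 reached 298 FPKM in ZD8 while RLN2 stood at 0.296 FPKM there, and all 4 receptors stayed under 1 FPKM; the interval of INSL6 in ZD12 runs on below the line.

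RLN2 lies inside the gene of CD274, an immune checkpoint ligand transcribed from the opposite strand, which spans 216646378 to 216792731. No base of the RLN2 exons lies in an exon of CD274, whose nearest exons end at 216736872 and begin at 216781659. CD274 itself was between 0.519 and 1.08 FPKM. Whether the reads were counted by strand is not given in the sources used here, so reads from an unspliced CD274 transcript could not be told from RLN2 reads.

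RLN3, a relaxin known mainly as a neuropeptide, was near 1 FPKM throughout. Its level was 0.882, 0.662 and 1.36 FPKM in ZD2, ZD3 and ZD12 of the SLS group and 1.03, 0.970 and 0.790 FPKM in ZD5, ZD7 and ZD8 of the LLS group, from 38 to 107 reads. The 3 LLS values fell between the lowest and the highest SLS value. RLN3, on chromosome 2 from 65149883 to 65173306 on the minus strand, has IL27RA 217 nt and RFX1 252 nt away. ZD8, where INSL3 and RLN2 were at their extremes, was within the range of the others for RLN3.

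INSL6, a ligand known from the testis, lies 22982 nt beyond RLN2, on chromosome 1 from 216792785 to 216820197 on the plus strand. It was 0.0945, 0.130 and 0.0181 FPKM in ZD2, ZD3 and ZD12 and 0.150, 0.142 and 0.178 FPKM in ZD5, ZD7 and ZD8. All 3 LLS ovaries were above all 3 SLS ovaries, but the reads were 6, 7 and 1 against 9, 9 and 6, which overlap. The exact two-sided permutation test gave p = 0.1, the smallest that 3 ovaries against 3 allow. Of 23564 genes above 0 FPKM in at least 1 ovary, 4.77% had groups that did not overlap. In ZD8, where its neighbour RLN2 was nearly missing, INSL6 was 1.19 times its level in ZD5 (95% counting interval 0.348 to 3.74), which is not distinguishable at this depth.

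INSL5, a hormone of the gut, was at 0 in all 6 ovaries. A count of 0 allows up to 3 reads, which are 0.0217 FPKM in ZD2 and 0.0410 FPKM in ZD8, where the depth was lowest.

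The receptors were low in every ovary, and 4 of 4 stayed under 1 FPKM. RXFP2, the receptor of INSL3, lies on chromosome 11 from 8266898 to 8321021 on the plus strand, with 18 exons. Its level was 0.0645, 0.0643 and 0.103 FPKM in ZD2, ZD3 and ZD12 and 0.0787, 0.149 and 0.562 FPKM in ZD5, ZD7 and ZD8. ZD8 was the highest, as for its ligand, with 60 reads and 3.77 times the level of ZD7 (95% counting interval 2.4 to 6.06). The second highest level was in ZD7, where INSL3 was lowest, and the groups overlapped (exact two-sided permutation p = 0.2). The mean log2(FPKM + 1) of RXFP2 was higher by 0.21 in LLS ovaries with ZD8 and by 0.048 without it. With a pseudocount of 0.1 the difference was 0.81, and by edgeR on the recovered reads of all 6 ovaries it was 1.49 (adjusted p = 0.9998), since a pseudocount of 1 compresses levels under 1 FPKM.

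RXFP1, the receptor of relaxin, lies on chromosome 8 from 47473465 to 47603332 on the plus strand, with 16 exons. Its level was 0.0366, 0.0991 and 0.0505 FPKM in ZD2, ZD3 and ZD12 and 0.124, 0 and 0.117 FPKM in ZD5, ZD7 and ZD8. ZD8, where RLN2 was nearly missing, was within the range of the others, and the count of 0 in ZD7 allows up to 0.0110 FPKM. The exact two-sided permutation test gave p = 0.8.

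RXFP3, on chromosome 16 from 19948896 to 19955163 on the plus strand, was 0.170, 0.114 and 0.160 FPKM in ZD2, ZD3 and ZD12 and 0.269, 0.791 and 0.0939 FPKM in ZD5, ZD7 and ZD8. ZD7 stood highest with 302 reads, and ZD8 was lowest with 19 reads, so that the LLS ovaries enclosed the SLS ovaries (exact two-sided permutation p = 0.4). The mean log2(FPKM + 1) of RXFP3 was higher by 0.24 in LLS ovaries with ZD8 and by 0.39 without it, but by 0.038 without ZD7. It was 0.69 with a pseudocount of 0.1 and 1.46 by edgeR (adjusted p = 0.9998). Without ZD8, ZD5 and ZD7 were above every SLS ovary, and groups that did not overlap were found for 17.3% of the 22910 genes above 0 FPKM. RXFP4, on chromosome 4 from 94083974 to 94085095 on the minus strand, had 4 reads in ZD2, equal to 0.0585 FPKM, and 0 in the other 5 ovaries (exact two-sided permutation p = 1).

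Over the 6 ovaries the median level was 217 FPKM for RLN2, 8.80 for INSL3, 0.926 for RLN3, 0.165 for RXFP3, 0.136 for INSL6, 0.0907 for RXFP2 and 0.0748 for RXFP1. RLN2 and INSL3 overlapped only through ZD8, since without it RLN2 was at 162 FPKM or more and INSL3 at 45.1 FPKM or less. INSL3 did not overlap with RLN3. The ranges of RLN3 and RXFP3 overlapped through ZD7, and those of RXFP3, INSL6, RXFP2 and RXFP1 all overlapped.

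RLN2 exceeded INSL3 in 5 ovaries, and the order was turned in ZD8. RLN2 was 29.5, 57.8 and 5.71 times INSL3 in ZD2, ZD3 and ZD12 of the SLS group and 26.8 and 71.1 times INSL3 in ZD5 and ZD7 of the LLS group. In ZD8, INSL3 was 1007 times RLN2.

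The comparison of LLS with SLS ovaries called no relaxin family gene. A gene was called at an adjusted p under 0.05 and an absolute log2 difference over 1 by limma on log2(FPKM + 1), and 0 of the 2 tested members were called, beside 0% of the 12260 genes. At an unadjusted p under 0.05 there were 0 members and 1.76% of all genes. DESeq2 on the recovered reads called 0 members beside 0.164% of 12176 genes, and edgeR called 0 members beside 0% of them. Groups that did not overlap were found for 0 of the 2 tested members and 5.12% of the genes tested. When ZD5 was left out, RLN2 was lower in both remaining LLS ovaries than in every SLS ovary, as 8.55% of 12124 genes were separated in either direction. Nothing beyond the separate ovaries is known of the replicates, so the p-values measure the spread between these 6 sows.

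For INSL3, the mean was 18.6 ± 22.9 FPKM in SLS and 104 ± 168 FPKM in LLS ovaries (SD, n = 3 each). The log2 difference of LLS from SLS was 0.91 (SE 1.52, limma adjusted p = 0.999), and the exact two-sided permutation test gave p = 0.7. Without ZD8 the difference was -0.94 (SE 0.82, limma adjusted p = 0.9996), in the opposite direction. On the recovered reads of all 6 ovaries it was 2.37 by DESeq2 and 2.38 by edgeR. The direction of the INSL3 difference was thus set by 1 ovary.

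For RLN2, the mean was 238 ± 53.4 FPKM in SLS and 158 ± 155 FPKM in LLS ovaries (SD, n = 3 each). The log2 difference was -2.53 (SE 1.77, limma adjusted p = 0.999), and the exact two-sided permutation test gave p = 0.6. Without ZD8 it was -0.05 (SE 0.35, limma adjusted p = 0.9996). On the recovered reads of all 6 ovaries, where the mean of a group is taken before the log, it was -0.47 by DESeq2.

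**Figure D2:**
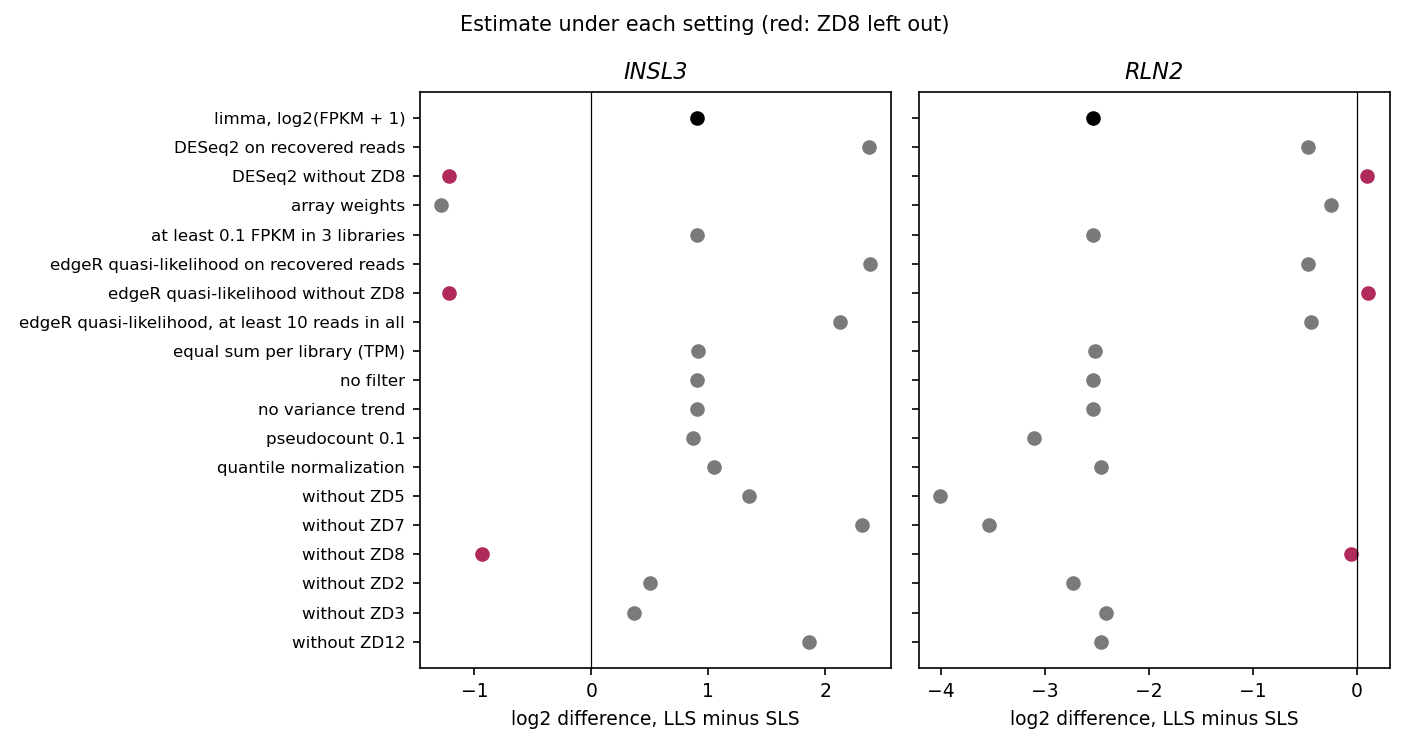
Log2 difference of LLS from SLS ovaries for INSL3 (left) and RLN2 (right), 1 row for each setting, with the limma estimate in black and the settings that leave out ZD8 in red. INSL3 went from 0.91 to -0.94 and RLN2 from -2.53 to -0.05 when ZD8 was left out.

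In ZD8, theca markers were high with INSL3 and most luteal markers were low with RLN2. Elsewhere the orders differed in part. PTCH1 was next highest after ZD12 in ZD5, as for INSL3, whereas TCF21 was lowest there at 6.58 FPKM. Among the ovaries other than ZD8, STAR was highest in ZD5, as for RLN2, whereas CYP11A1 was lowest there. Theca markers were highest in ZD8 for 5 of 5 genes reported, beside 44.6% of all genes tested. The second highest value of each was in ZD12, as for INSL3. Their summed level was 21.2 to 62.7 FPKM in the SLS ovaries and 20.2 to 213 FPKM in the LLS ovaries, and none was at 0 in any ovary. CYP17A1, the androgen-making enzyme of the theca, was 10.4, 9.12 and 29.4 FPKM in ZD2, ZD3 and ZD12 and 7.27, 7.02 and 117 FPKM in ZD5, ZD7 and ZD8. ZD8 held 3.99 times the CYP17A1 level of ZD12, a smaller step than the 6.61 of INSL3.

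Among the other theca markers, the ratio of ZD8 to ZD12 was 2.82 for PTCH1, 4.14 for GLI1 and 1.81 for HHIP, all genes of hedgehog signalling, and 2.88 for TCF21, a transcription factor of stromal progenitors. INSL3 relative to CYP17A1 was 0.579, 0.528 and 1.54 in ZD2, ZD3 and ZD12 and 1.60, 0.325 and 2.54 in ZD5, ZD7 and ZD8. This ratio was highest in ZD8 and overlapped between the groups. The part that the number of theca cells has in the INSL3 level was not tested.

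Luteal markers were lowest in ZD8 for 6 of 7 genes, beside 26.3% of all genes tested. The exception was PRLR, the prolactin receptor, at 1.16 FPKM in ZD8 and at most 0.167 elsewhere. Their summed level was 9167 to 10808 FPKM in the SLS ovaries and 124 to 12191 FPKM in the LLS ovaries. The lowest of the other ovaries held 175 times the ZD8 level of HSD3B1, 96.3 times that of STAR, which carries cholesterol into mitochondria, 69.9 times that of CYP11A1, which cleaves its side chain, and 33.4 times that of SCARB1, the lipoprotein receptor that takes cholesterol up. For the receptors of luteinizing hormone, LHCGR, and of prostaglandin F, PTGFR, the ratios were 2.17 and 3.39. LHCGR was lower in every LLS ovary than in every SLS ovary, as 5.12% of the genes tested were separated in either direction. Its log2 difference was -1.28 (SE 0.43, limma adjusted p = 0.999) with ZD8 and -0.92 (SE 0.35, limma adjusted p = 0.669) without it. RLN2 relative to HSD3B1 was 0.0492 to 0.0898 in the other 5 ovaries and 0.0176 in ZD8. HSD3B1, STAR, CYP11A1 and SCARB1 thus remained at 16.8 to 31.2 FPKM in ZD8, where RLN2 had 7 reads. Which cells of ZD8 held this RNA was not tested, and neither was the part of the number of luteal cells in the RLN2 level.

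Oocyte markers were highest in ZD8 for 9 of 9 genes, beside 44.6% of all genes tested. Their summed level was 6.34 to 23.3 FPKM in the SLS ovaries and 8.38 to 131 FPKM in the LLS ovaries. CYP19A1, the aromatase of the granulosa, was at 0 in 5 ovaries and at 0.0137 FPKM in ZD5. The granulosa list as a whole was highest in ZD8 for 3 of 8 genes and lowest there for 1. Endothelial markers were lowest in ZD8 for 4 of 5 genes, leukocyte markers highest there for 3 of 4, smooth muscle markers for 2 of 5 and markers of epithelium and mesothelium for 2 of 7. The part of these cell types in the INSL3 and RLN2 levels was not tested.

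**Figure D3:**
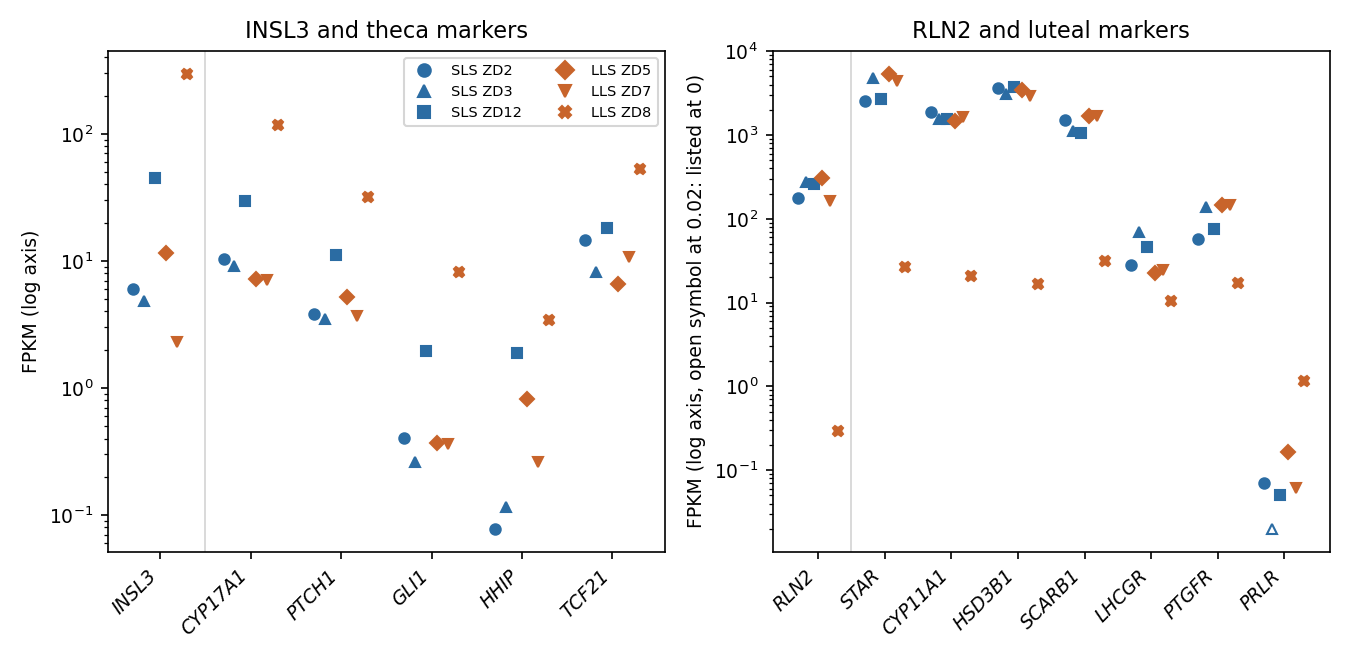
Level of INSL3 beside 5 theca markers (left) and of RLN2 beside 7 luteal markers (right) in each ovary in FPKM on a log axis, with SLS ovaries in blue and LLS ovaries in orange. ZD8 (orange cross) was highest for INSL3 and all 5 theca markers and lowest for RLN2 and 6 of the 7 luteal markers.

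Genes with the most similar pattern were found by the root mean square difference of log2(FPKM + 1), centred on the mean of each gene, over the 6 ovaries. For RLN2 the nearest were HSD3B1 at 0.32, STAR at 0.43, NR5A2, a nuclear receptor of steroid-making cells, at 0.57, CYP11A1 at 0.64 and MGAM at 0.70. For INSL3 they were LOC110261493 at 0.50, NUPR1, a stress response protein, at 0.76, MIR99B at 0.80, CYP4F55, a cytochrome P450, at 0.82 and MIR29C at 0.85, where MIR99B and MIR29C are rows of miRNA precursors in the gene table. LOC110261493, annotated as like a sperm acrosome membrane protein, was 0.441, 2.03 and 14.5 FPKM in ZD2, ZD3 and ZD12 and 2.16, 0.562 and 71.5 FPKM in ZD5, ZD7 and ZD8. These distances are descriptions over 6 ovaries. Without ZD8, the 5 nearest genes of RLN2 included 0 of those above and the 5 nearest of INSL3 included 1, LOC110261493.

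The pathway was described by 64 genes in 8 lists, from the enzymes that process the prohormones to the target genes. All 64 were in the table, 53 were tested and 0 were called by limma in either direction. At an unadjusted p under 0.05 there were 0 of the 53, beside 1.76% of all genes, which became 6 of the 53 (11.3%) beside 5.92% of all genes when ZD8 was left out. The median log2 difference was 0.01 over the pathway genes and 0.02 over all genes. In ZD8, 21 of the 53 were above every other ovary (39.6%, beside 44.6% of all genes tested) and 18 were below every other ovary (34.0%, beside 26.3%).

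Of the enzymes that process prohormones, 5 of 7 were tested, and FURIN was the most abundant at 35.3, 23.4 and 31.1 FPKM in ZD2, ZD3 and ZD12 and 46.5, 43.9 and 18.0 FPKM in ZD5, ZD7 and ZD8. FURIN was highest in 2 LLS ovaries and lowest in the third, ZD8, with a log2 difference of 0.17 (SE 0.40) with all ovaries and 0.60 (SE 0.25, limma adjusted p = 0.787) without ZD8. PCSK6 of the same list differed by -0.61 (SE 0.28) with all ovaries and by -0.72 (SE 0.26, limma adjusted p = 0.596) without ZD8. PCSK6 was lower in every LLS ovary than in every SLS ovary, where 5.12% of the genes tested were separated in either direction. Among the 6 tested of 7 G protein genes the most abundant was GNAS, the stimulatory subunit through which RXFP1 and RXFP2 act. GNAS was between 131 and 181 FPKM in all ovaries, with ZD8 the highest and a log2 difference of -0.0047 (SE 0.31).

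ADCY3 led the adenylyl cyclases, which make cyclic AMP and of which 7 of 9 were tested, at 18.3 to 37.5 FPKM and a log2 difference of 0.45 (SE 0.29). It was higher in every LLS ovary than in every SLS ovary, as 5.12% of the genes tested were separated in either direction. PRKAR1A, a regulatory subunit, led the 6 tested genes of protein kinase A at 71.4 to 104 FPKM and -0.24 (SE 0.29). PDE8A led the phosphodiesterases, which break cyclic AMP down, with 8 of 10 tested. PDE8A was 22.5 to 34.0 FPKM in the other 5 ovaries and 10.3 FPKM in ZD8, while 7 of the 10 phosphodiesterases were highest in ZD8. ATF1 led the 3 tested transcription factors that answer to cyclic AMP, at 7.98 to 18.5 FPKM and a log2 difference of 0.02 (SE 0.37).

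Genes known as targets of relaxin numbered 11, with 8 tested. Of the 11, 7 were lowest in ZD8 and 3, NOS2, MMP2 and MMP13, were highest there. TIMP1, an inhibitor of the matrix metalloproteinases, was the most abundant at 7778, 5345 and 5179 FPKM in ZD2, ZD3 and ZD12 and 7110, 8556 and 126 FPKM in ZD5, ZD7 and ZD8. ZD8 was far below the other 5 ovaries, as for RLN2, and the log2 difference was -1.60 (SE 1.65, limma adjusted p = 0.999) with it and 0.38 (SE 0.51) without it. Known regulators of INSL3 numbered 11, with 10 tested, and 8 of them were highest in ZD8. GATA6, a transcription factor of steroid-making cells, was the most abundant but was among the 3 that were lowest there, at 34.1 FPKM against 55.8 to 60.8 FPKM in the other ovaries.

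Without ZD8, 1 of 53 pathway genes was called by limma, beside 0.167% of 11985 genes. This was EDNRB, the endothelin receptor B, from the list of relaxin targets. It is named because it was called, and 1 gene says nothing of the list. Its level was 14.6, 21.3 and 15.7 FPKM in ZD2, ZD3 and ZD12 and 95.8, 53.4 and 10.2 FPKM in ZD5, ZD7 and ZD8. ZD5 and ZD7 were above every SLS ovary and ZD8 below them all. The log2 difference was 2.01 (SE 0.30, limma adjusted p = 0.0441) without ZD8 and 1.11 (SE 0.70, limma adjusted p = 0.999) with it. Without ZD8, the epithelial marker EPCAM was also higher in LLS ovaries, by 3.47 on the log2 scale (SE 0.42, limma adjusted p = 0.0221). The other 4 tested markers of epithelium and mesothelium differed the other way, by -2.05 for KRT19, -1.88 for KRT8, -0.68 for CDH1 and -0.52 for WT1, with none called and a median of -0.68 over the list. All 5 smooth muscle markers were lower at an unadjusted p under 0.05, by -1.41 to -0.84, with none called. The part of these cell types in the EDNRB level was not tested.

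**Figure D4:**
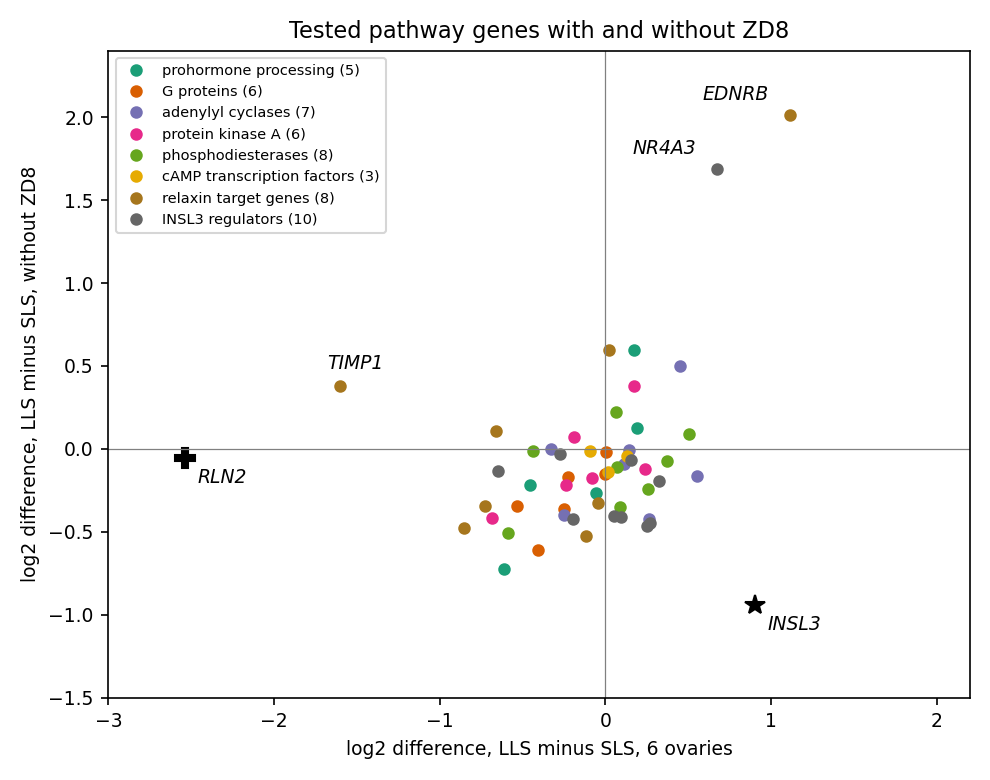
Log2 difference of LLS from SLS ovaries for each of the 53 tested pathway genes with all 6 ovaries (horizontal axis) and without ZD8 (vertical axis), coloured by list with the number of genes in brackets, and with INSL3 and RLN2 in black. EDNRB stands at 1.11 and 2.01, TIMP1 moves from -1.60 to 0.38, and most other genes lie near 0 on both axes.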

How the data were processed

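Total RNA libraries of 3 SLS and 3 LLS ovaries were analysed, with groups taken from the labels. Reads were trimmed and aligned to Sscrofa11.1 with HISAT2 by the authors, who deposited FPKM values, and the program that counted reads is not given in the sources used here. They also deposited miRNA values as RPM under another name, from which nothing is reported here. Whole reads were recovered from the FPKM values with the longest annotated transcript for 23408 of 23546 genes (99.4%, tolerance 0.001 reads). Depth was 32272802 to 60903268 reads per library, and the reads behind low values are given with them.

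The test was limma 3.58.1 (R 4.3.3) with a trended variance on log2(FPKM + 1), for genes with at least 1 FPKM in at least 3 libraries, adjusted by Benjamini-Hochberg over 12260 genes. A call required an absolute log2 fold change over 1 and an adjusted p under 0.05. Fold changes on this scale understate the change of low genes. Each member above 0 was tested by exact permutation of the ovaries as well, two-sided, with a smallest p of 0.1. DESeq2 1.42.0, the tool of the study for genes, and edgeR 4.0.16 on the recovered reads were alternatives, because the deposited unit is not a count. Other alternatives were the pseudocount, the filter, quantile normalization, no variance trend, array weights, rescaling to TPM and leaving out each ovary. The tests were tested on simulated data.

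The named genes were every member, the 5 genes with the pattern most similar to each tested member, the most abundant gene of each pathway list or those with an unadjusted p under 0.05, every theca and luteal marker, and genes overlapping a member. IL27RA, RFX1, IGFBP5, PAQR9, CYP19A1, EDNRB, PCSK6, EPCAM and the markers named with it lie outside this rule and were chosen after their values were seen, and 1 theca marker is not reported here. The members and lists were chosen with earlier results of these data known.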

Additional observations from a re-analysis of the deposited data

How the results depend on the processing

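The members called stayed at 0 under each of the 19 alternatives. Across them the adjusted p ranged from 0.618 to 1 for INSL3 and from 0.918 to 1 for RLN2. The number of genes called, 0 with limma on 6 ovaries, was 20 with DESeq2, 13 with array weights, 99 with an unadjusted p under 0.05 and 0 to 20 when each ovary was left out, where 20 was the count without ZD8. Without ZD8, as alternatives added after the data were seen, it was 195 with DESeq2 and 2 with edgeR. The INSL3 difference of 0.91 was reversed to -1.22 by DESeq2 and by edgeR without ZD8 and to -1.28 by array weights, and ranged from -0.94 to 2.31 when each ovary was left out. The RLN2 difference of -2.53 was reversed to 0.10 by DESeq2 and 0.11 by edgeR without ZD8, and ranged from -4.01 to -0.05 when each ovary was left out. With array weights on all 6 ovaries it was -0.24. The RXFP1 difference of 0.023 was reversed to -0.035 by quantile normalization and ranged from -0.0064 to 0.078 when each ovary was left out, and that of RLN3 from -0.13 to 0.12. Members with groups that did not overlap rose from 0 to 1, INSL6, with no filter and with a filter at 0.1 FPKM, and were 0 to 1 when each ovary was left out, with RLN2 apart when ZD5 was left out (8.55% of genes were). The ratio of ZD8 to ZD12 for INSL3, 6.61, was 6.25 with TMM factors and 8.56 with quantile normalization. The RLN2 ratio of 549 was 1504 with quantile normalization. Array weights moved the median of all genes to -0.12, and relative to it INSL3 stayed lower in LLS ovaries. The cause of these changes was not tested beyond the libraries left out. No paired analysis was possible because the labels tie no SLS ovary to an LLS ovary. Depth limits RLN2 in ZD8, INSL6, RXFP1, RXFP2 and RXFP4, which rest on at most 60 reads in an ovary.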

Other observations

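Without ZD8, the 5 genes nearest to INSL3 over the other 5 ovaries were MIRLET7F-2 at a root mean square difference of 0.42, NPR3, a receptor that clears natriuretic peptides, at 0.44, HDC, which makes histamine, at 0.49, LOC110261493 at 0.52 and MIR23B at 0.53. In ZD8 itself, NPR3 was at 5.11 FPKM and HDC at 3.27 FPKM, below their values of 12.8 and 11.8 FPKM in ZD12, while INSL3 was higher in ZD8 than in ZD12. For RLN2, the 5 genes nearest without ZD8 were LOC110260231 at 0.05, RMI1 at 0.05, CASC1 at 0.06, GALNT7 at 0.08 and RBM34 at 0.10. RLN2 varied little among these ovaries, by a root mean square of 0.37 around its mean, and the most abundant of the 5 was GALNT7, a glycosyltransferase, at 8.40 to 15.9 FPKM. None of the 5 was near 0 in ZD8, where the lowest was RMI1 at 1.04 FPKM.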
